A study of Homo sapiens with 6 samples.

Results

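SWI/SNF (BAF and PBAF) complexes are ATP-driven machines that slide or evict nucleosomes, and the transcripts of 10 of their subunits were followed here: SMARCA4, SMARCA2, SMARCC1, SMARCC2, SMARCD1, SMARCB1, ARID1A, ARID1B, ARID2 and PBRM1. The members were taken by gene symbol, every row of the deposited transcript table that the GENCODE release 29 annotation assigns to one of them was kept, and these 10 genes stand among 18768 genes with a row. The study asked what changed in the RNA of HCT116 cells, a human line from a colorectal carcinoma, when the long non-coding RNA AC010789.1 was silenced. Cells in both groups were grown in the same serum-containing medium and transfected with a short interfering RNA (siRNA), either one against AC010789.1 (si-AC010789.1, the 3 knockdown libraries) or a negative control (siRNA-NC, the 3 control libraries). The silencing rests on a single siRNA chosen by the study, and all 6 libraries used here come from the same cell line. The study reports that it verified the knockdown in the sequenced samples. The level of AC010789.1 was not analysed here, so the labels were not checked again against the silenced RNA.

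Each complex holds a single ATPase, SMARCA4 (BRG1) or SMARCA2 (BRM). A scaffold of SMARCC1 (BAF155), SMARCC2 (BAF170), a SMARCD subunit and SMARCB1 is assembled around it, and SMARCB1 contacts the nucleosome. ARID1A or ARID1B marks the BAF form, whereas ARID2 and PBRM1 mark the PBAF form. Several of these genes are tumour suppressors, and ARID1A in particular is often inactivated in colorectal cancers.

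Whole-number counts of reads per transcript were deposited. Library totals ranged from 11277222 to 13443866 counts, so that 3 counts, taken as the floor, equalled 0.223 to 0.266 CPM (counts per 1000000 counts of the library). The CPM values of genes and transcripts were computed on normalized library sizes instead of these totals. Floors cover counting error only. GEO's labels call the libraries of a group separate samples. The study names cells of different generations in each biological repeat as a possible reason for differences within groups. Of 10 marker genes of colorectal epithelium, KRT19, CEACAM5, CDX1 and CDX2 were not analysed here. Of the 6 analysed, KRT8 stood at 444 to 850 CPM and KRT18 at 351 to 535 CPM, but EPCAM reached only 3.10 to 5.59 CPM, CDH1 0.675 to 1.05 CPM and LGALS4 0 to 0.225 CPM. CLDN4 stood between 22.5 and 28.9 CPM in 4 libraries and at 0.320 and 1.78 CPM in knockdown libraries 2 and 3. LGALS4 was thus at or under the floor and CDH1 close to it in cells labelled HCT116, while EPCAM was low but above it in every library. The 4 fibroblast markers analysed of 6 summed to 59.7 to 69.3 CPM in the controls and 63.9 to 68.6 CPM in the knockdowns, most of it COL1A1. The 3 leukocyte markers analysed of 6 summed to 6.90 to 9.05 and 3.73 to 6.31 CPM, and the 2 endothelial markers of 4 to 1.73 to 2.48 and 0.873 to 2.51 CPM. In such bulk samples fewer cells of a type and less RNA per cell cannot be told apart, and the part of other cells in any result was not tested.

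All 10 subunits were transcribed well above the floor in both groups. Gene levels can be compared with one another only per length, so TPM (counts divided by transcript length and scaled to a sum of 1000000 per library) was used for the order. In siRNA-NC cells the scaffold led, with SMARCC1 at 126 ± 2.23 TPM (SD, n = 3), SMARCC2 at 117 ± 8.19 TPM and SMARCB1 at 114 ± 2.69 TPM. Each of these overlapped its neighbour in the order. SMARCD1 followed at 81.0 ± 1.55 TPM. ARID1A (66.7 ± 3.34 TPM) and SMARCA4 (61.8 ± 3.99 TPM) overlapped, and SMARCA2 was lower at 36.7 ± 4.60 TPM. The lowest were PBRM1 at 25.0 ± 0.380 TPM, ARID1B at 22.1 ± 2.72 TPM and ARID2 at 20.0 ± 0.871 TPM, with ARID1B overlapping ARID2. The place of SMARCB1 depends on SMARCB1-203, a short transcript model of 595 nucleotides that held 38.5% to 47.0% of its counts. In si-AC010789.1 cells the order of the scaffold differed: SMARCB1 led at 129 ± 5.77 TPM, and SMARCC1, at 101 ± 2.82 TPM, stood below SMARCC2 (116 ± 3.73 TPM) and within the range of SMARCD1 (106 ± 13.9 TPM).

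**Figure D1:**
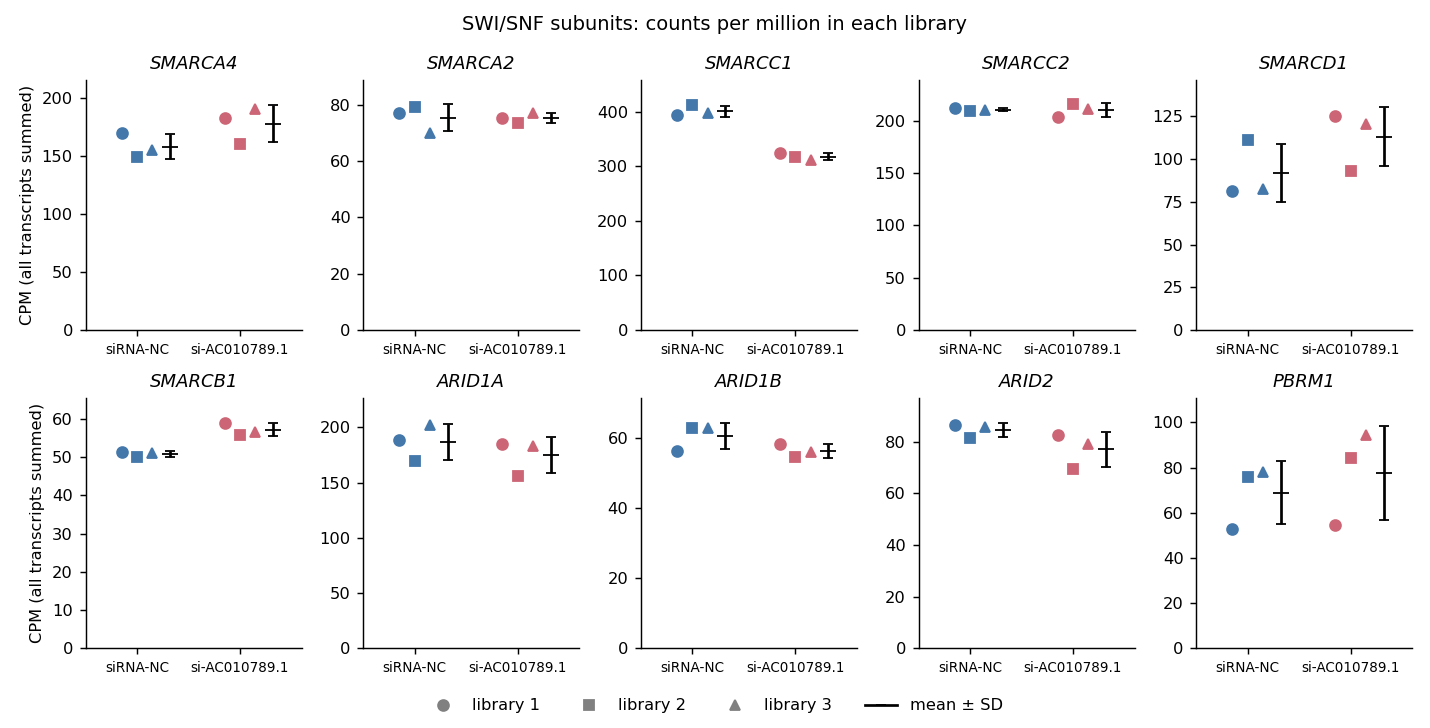
CPM of each subunit (y axis, all its transcripts summed, axis from 0) in the 3 siRNA-NC and the 3 si-AC010789.1 libraries (x axis), with the group mean ± SD in black. The SMARCC1 libraries fall into separate groups, 393 to 411 against 311 to 323 CPM, the SMARCB1 libraries separate by a smaller step, and the other 8 genes overlap.

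SMARCC1 was lower and no other subunit on the list was called. Of the 10, 1 fell and 0 rose at an adjusted p-value under 0.05, against 0.944% of the 13764 genes tested (0.676% lower, 0.269% higher). Groups of CPM values did not overlap for 2 of the 10, where 25.1% of all genes had such groups, and 2 of the 10 had an unadjusted p-value under 0.05, against 17.2% of all genes. The log2 fold changes of the 10 had a median of -0.0012, beside -0.00059 over all genes tested, with 4 above 0 and 6 below. Apart from the single call, these shares were near the background.

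SMARCC1 (ENSG00000173473.10) lies on the minus strand of chr3:47585272-47782106 in GRCh38 and encodes a core scaffold protein. It had 393, 411 and 397 CPM in control libraries 1, 2 and 3, and 323, 317 and 311 CPM in knockdown libraries 1, 2 and 3. Every knockdown library was thus below every control library, by more than the spread within either group. The mean fell by 20.8%, from 400 ± 9.84 to 317 ± 6.33 CPM (SD, n = 3 each). On the log2 scale the change was -0.34 (SE 0.040, 95% confidence interval -0.43 to -0.24), with an edgeR adjusted p-value of 0.0249, the 54th smallest of all genes tested. DESeq2 gave a log2 fold change of -0.34 and an adjusted p-value of 5.83e-07. The call did not survive the loss of any single library: the edgeR adjusted p-value was 0.0793, 0.0817 and 0.0782 without control libraries 1, 2 and 3, and 0.0723, 0.0969 and 0.112 without knockdown libraries 1, 2 and 3. The change stayed between -0.35 and -0.32 in those 6 fits. Without both libraries numbered 1, which differed from the rest in the transcripts of PBRM1 and SMARCC2, it was -0.36 with an edgeR adjusted p-value of 0.175.

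A single transcript carried this gene. SMARCC1-201, the full-length coding transcript of 6375 nucleotides, held 99.2% to 99.7% of the SMARCC1 counts in every library, with 4411, 5440 and 5254 counts in the controls and 3684, 3936 and 3819 counts in the knockdowns. Its own log2 fold change was -0.35, with an edgeR adjusted p-value of 0.223 over the 44319 transcripts tested. The next transcripts, SMARCC1-206 with a retained intron and the non-coding SMARCC1-204, had 7 to 26 and 4 to 7 counts. The SMARCC1 sum was thus nearly the count of 1 transcript.

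SMARCC2 (ENSG00000139613.11, chr12:56162983-56189567, minus strand), the paralog that shares the scaffold position with SMARCC1, had nearly the same level everywhere. It stood at 212, 210 and 210 CPM in the controls and at 203, 216 and 211 CPM in the knockdowns. Its log2 fold change was -0.0020 (95% confidence interval -0.10 to 0.097), with an edgeR adjusted p-value of 0.986. Per length, the log2 ratio of SMARCC1 to SMARCC2 was -0.032, 0.20 and 0.15 in control libraries and -0.13, -0.20 and -0.25 in knockdown libraries. The mean ratio was 1.08 in the controls and 0.876 in the knockdowns, a log2 difference of -0.30, and the groups did not overlap. In the exact two-sided permutation test this gave p = 0.1, the smallest value that 3 libraries against 3 allow, so none of the 5 ratios examined could pass 0.05. SMARCC2 overlaps MYL6 on the other strand, and it is not stated whether strand was used in counting.

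SMARCB1 (ENSG00000099956.19, chr22:23786931-23838008, plus strand), the subunit lost in rhabdoid tumours, was the other gene with separate groups. It had 51.5, 50.1 and 51.2 CPM in the controls and 59.0, 55.8 and 56.7 CPM in the knockdowns. This log2 fold change of 0.17 (95% confidence interval 0.025 to 0.31) had an unadjusted edgeR p-value of 0.0276 and an adjusted one of 0.231. SMARCB1 overlaps DERL3 on the other strand, PBRM1 overlaps SMIM4 and GNL3, and of the 10 genes SMARCD1 alone overlaps no annotated gene there. Most of its counts were divided between SMARCB1-203 (228, 287 and 266 counts in the controls, 260, 273 and 329 in the knockdowns) and the full-length SMARCB1-204 (213, 257 and 319, then 270, 205 and 266). SMARCB1-201, another coding form, had 28 to 99 counts. None of these transcripts passed the test.

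SMARCD1 (ENSG00000066117.14, chr12:50084972-50100712, plus strand) encodes BAF60A, which links the complex to transcription factors. Its levels were uneven within both groups, at 81.3, 111 and 82.7 CPM in the controls and 125, 93.2 and 120 CPM in the knockdowns. Library 2 was the high one in the controls and the low one in the knockdowns, and the groups overlapped. The log2 fold change of 0.30 (95% confidence interval -0.089 to 0.69) had an edgeR adjusted p-value of 0.405. On the TPM scale the same libraries gave 82.3, 79.3 and 81.4 in the controls and 118, 90.7 and 109 in the knockdowns, which did not overlap. The scales differed in the order of library 2 of the controls and of the knockdowns, at 111 and 93.2 CPM but 79.3 and 90.7 TPM. SMARCD1-205, a coding transcript of 2095 nucleotides, had 0, 2 and 1 counts in the controls and 797, 0 and 814 counts in the knockdowns. It was thus nearly absent where the scales differed in order, and what made them differ was not tested. The longer coding forms SMARCD1-201 and SMARCD1-202 had 126 to 810 and 68 to 541 counts.

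Over the 10 subunits, TPM values of the groups did not overlap for 4 genes, SMARCC1, SMARCB1, SMARCD1 and PBRM1, against 21.1% of all genes tested. The mean TPM of SMARCC1 fell by 19.9%, and that of SMARCB1, SMARCD1 and PBRM1 was 13.4%, 30.7% and 27.4% higher. On the CPM scale SMARCD1 and PBRM1 overlapped, so for these genes the separation held on the TPM scale only.

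Of the ATPases, SMARCA4 (ENSG00000127616.18, chr19:10960825-11079426, plus strand) had 170, 149 and 155 CPM in the controls and 183, 160 and 191 CPM in the knockdowns. Only knockdown library 2 lay inside the range of the controls. The log2 fold change of 0.17 (95% confidence interval -0.030 to 0.37) had an edgeR adjusted p-value of 0.358. SMARCA2 (ENSG00000080503.23, chr9:1980290-2193624, plus strand), its paralog, had 77.2, 79.3 and 70.0 CPM in the controls and 75.4, 73.7 and 77.3 CPM in the knockdowns. With a log2 fold change of -0.00034 (95% confidence interval -0.16 to 0.16) and an edgeR adjusted p-value of 0.999, it was the closest of the 10 to no difference, and its sign changed with the normalization. The log2 TPM ratio of SMARCA4 to SMARCA2 was 0.76 ± 0.15 in the controls and 0.81 ± 0.23 in the knockdowns (SD, n = 3 each; exact permutation p = 0.9). Both groups therefore held more SMARCA4 than SMARCA2 transcript per length, 1.69-fold and 1.76-fold on the mean.

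The DNA-binding subunits of BAF, ARID1A and ARID1B, did not pass the test. ARID1A (ENSG00000117713.19, chr1:26693236-26782110, plus strand) had 188, 169 and 202 CPM in the controls and 185, 156 and 184 CPM in the knockdowns. Library 2 was the lowest of each group. The log2 fold change was -0.095 (95% confidence interval -0.32 to 0.13), with an edgeR adjusted p-value of 0.657. ARID1B (ENSG00000049618.23, chr6:156776020-157210779, plus strand), the alternative to ARID1A, had 56.3, 62.7 and 62.6 CPM in the controls and 58.3, 54.3 and 55.9 CPM in the knockdowns. Its log2 fold change was -0.11 (95% confidence interval -0.28 to 0.061), with an edgeR adjusted p-value of 0.491. The ARID1A to ARID1B ratio per length was 3.03 in the controls and 3.03 in the knockdowns, with a log2 difference of 0.0028 (exact permutation p = 1.0).

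PBAF subunits did not pass the test either. ARID2 (ENSG00000189079.15, chr12:45729665-45908040, plus strand) had 86.4, 81.5 and 85.5 CPM in the controls and 82.7, 69.6 and 79.0 CPM in the knockdowns, with a log2 fold change of -0.13 (95% confidence interval -0.32 to 0.055) and an edgeR adjusted p-value of 0.442. PBRM1 (ENSG00000163939.18, chr3:52545352-52685917, minus strand), whose bromodomains bind acetylated histones, had 52.9, 75.9 and 77.9 CPM in the controls and 54.4, 84.2 and 94.3 CPM in the knockdowns. Library 1 was the lowest of each group, and the highest library exceeded the lowest 1.47-fold and 1.73-fold, where the median gene tested had a range of 1.19-fold in each group. The log2 fold change of 0.17 (95% confidence interval -0.39 to 0.74) had an edgeR adjusted p-value of 0.760. It rested on single libraries, being 0.0075 without knockdown library 3, 0.016 without control library 1 and 0.37 without knockdown library 1. The log2 TPM ratios of ARID2 to ARID1A (-1.74 in each group, exact permutation p = 1.0) and of PBRM1 to SMARCA4 (-1.31 and -1.16, exact permutation p = 0.3) overlapped.

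**Figure D2:**
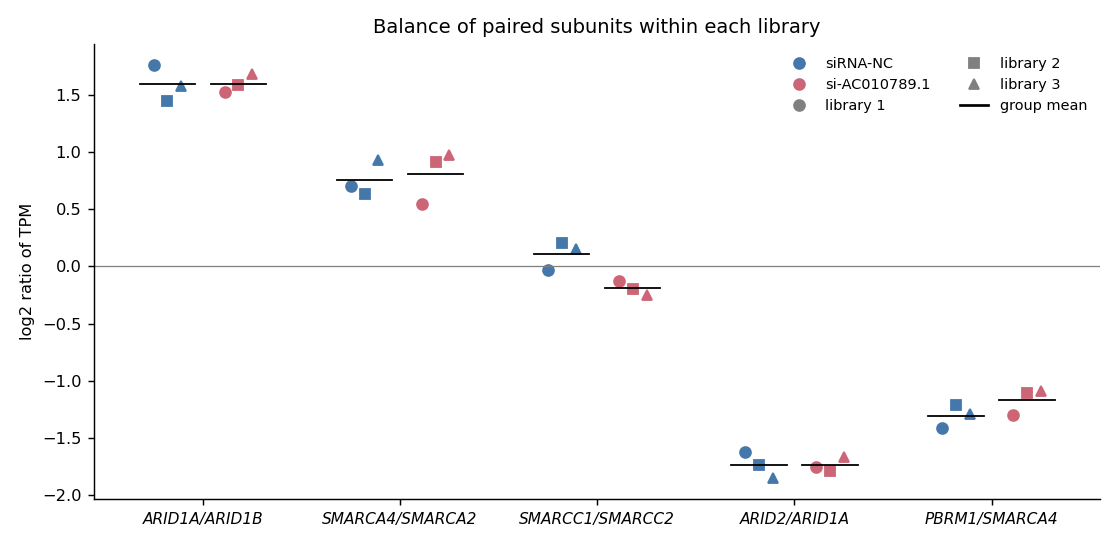
Log2 ratio of TPM (y axis) of 5 pairs of subunits (x axis) in each library, blue for siRNA-NC and red for si-AC010789.1, with group means as lines. SMARCC1/SMARCC2 is the single pair whose groups do not overlap, with a difference in means of -0.30.

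Other subunits of the same complexes were examined beside these 10. Of 21 further SWI/SNF genes listed, 19 were analysed and 17 passed the filter on low counts. By edgeR 0 of the 17 were called (the background is 0.944%). An unadjusted p-value under 0.05 was found for 4 (17.2% of all genes tested), and 5 had groups that did not overlap (25.1% of all). The median log2 fold change of the 17 was 0.014, with 10 above 0 and 7 below. The SMARCD1 paralog SMARCD2 had 66.7, 70.0 and 69.6 CPM in the controls and 54.7, 52.2 and 55.5 CPM in the knockdowns, a log2 fold change of -0.35 with an edgeR adjusted p-value of 0.0640. BICRAL, a subunit of the non-canonical GBAF complex, had 57.5, 57.5 and 54.8 against 46.8, 46.2 and 46.5 CPM, a log2 fold change of -0.28 with an edgeR adjusted p-value of 0.0904. The DESeq2 adjusted p-values of these genes were 0.00406 and 0.0353, so both were called by that tool, under which 5.47% of the genes it tested were called. BCL7B had 49.0, 33.4 and 43.1 against 61.8, 49.4 and 53.3 CPM, a log2 fold change of 0.39 with an edgeR adjusted p-value of 0.276. SMARCE1, a DNA-binding core subunit named after its values were seen, had 80.4, 85.7 and 82.1 against 68.2, 68.7 and 72.0 CPM, with a log2 fold change of -0.25 and an edgeR adjusted p-value of 0.108. SMARCD3 stood at 8.55 to 11.6 CPM and DPF1, a subunit of neuronal complexes, at 4.02 to 5.88 CPM, near the lower end of the list.

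**Figure D3:**
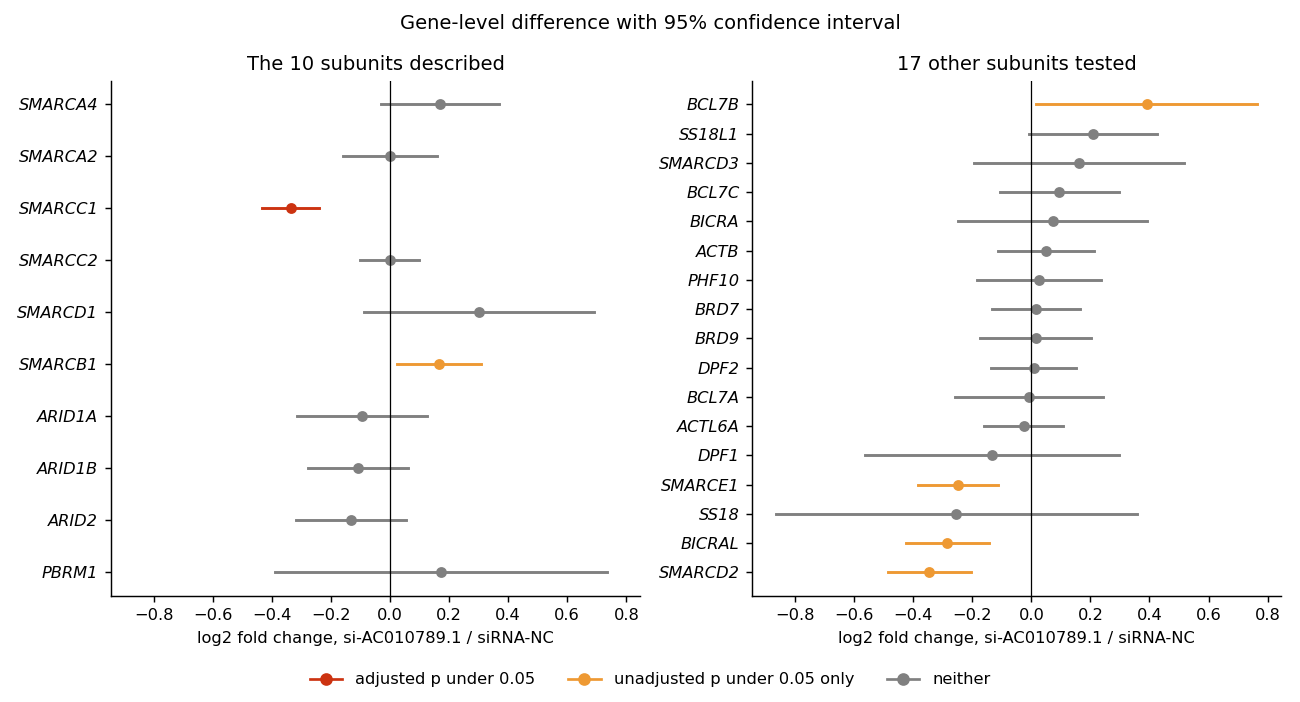
Log2 fold change of si-AC010789.1 over siRNA-NC (x axis) with its 95% confidence interval for the 10 subunits described and for the 17 other subunits tested (y axis). The SMARCC1 interval, -0.43 to -0.24, belongs to the single gene called by edgeR. By edgeR SMARCD2, BICRAL, SMARCE1, SMARCB1 and BCL7B pass at the unadjusted level only, while DESeq2 also called SMARCD2 and BICRAL.

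The transcripts behind the gene sums were far less stable than the sums. The annotation gives 258 transcripts to the 10 genes, of which 146 were in the table and 67 were tested. Of these 67, 0 passed the edgeR test at an adjusted p-value under 0.05 (0.0135% of all transcripts tested did), and 2 had an unadjusted p-value under 0.05 (5.73% of all), SMARCC1-201 and SMARCA4-205. Groups of CPM values did not overlap for 4 of the 67, against 14% of all. Within the same 67 transcripts, 11, or 16.4%, had at most 3 counts in one library and at least 100 in another, and over all transcripts tested 6.09% did. The median log2 fold change was 0.025, beside 0.0027 over all transcripts.

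In PBRM1 and SMARCC2 the same-numbered libraries of both groups shared a swing. PBRM1-203, a coding transcript of 7523 nucleotides, had 0, 799 and 688 counts in the controls and 0, 813 and 557 counts in the knockdowns, so it was at 0 in library 1 of both groups. In those libraries PBRM1-201, of 5145 nucleotides, was highest, with 234 and 207 counts, against 0 to 105 in the other 4 libraries. PBRM1-205 had 7 to 60 counts in 5 libraries and 399 counts in knockdown library 3. The low PBRM1 sums of both libraries numbered 1 thus went with the absence of the longest of these forms.

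SMARCC2 showed the same kind of exchange. SMARCC2-214, which the annotation marks as a target of nonsense-mediated decay (the removal of transcripts with a premature stop), had 689 counts in control library 1 and 697 counts in knockdown library 1, and 0 counts in the other 4 libraries. The main coding form SMARCC2-201 had 725, 1743 and 1440 counts in the controls and 702, 1660 and 1470 counts in the knockdowns. It was thus lowest in both libraries numbered 1, where SMARCC2-214 was present, while SMARCC2-203 ranged from 770 to 1086 counts. Accordingly, 64.9% and 65.4% of SMARCC2 counts were in coding transcripts in those libraries, against 94.5% to 95.6% in the others. Libraries numbered 3 shared a smaller swing. In them SMARCC2-209 had 119 and 108 counts, against 3 to 8 elsewhere, and SMARCC2-202 had 0, against 31 to 98 elsewhere.

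ARID1A, ARID1B and SMARCA2 shifted between libraries without an order by group. ARID1A-202 had 1360, 559 and 59 counts in the controls and 718, 1 and 1 counts in the knockdowns, while ARID1A-212 had 68, 162 and 1170 and then 371, 246 and 1222 counts. ARID1A-201 stood between 142 and 473 counts. These exchanges left the ARID1A sum within 156 to 202 CPM. For ARID1B, the form ARID1B-230 had 80, 493 and 506 and then 345, 146 and 104 counts, ARID1B-220 had 49 to 172 counts, and ARID1B-205 had 0 counts in library 1 of each group and 67 to 193 elsewhere. SMARCA2-204, SMARCA2-203 and SMARCA2-214, the leading SMARCA2 forms over all libraries, were each at 0 counts in knockdown library 1, where the SMARCA2 sum was 75.4 CPM all the same. In the other libraries SMARCA2-204 and SMARCA2-203 had 141 to 337 and 137 to 343 counts. SMARCA2-214 was also at 0 in control library 1.

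ARID2 was the exception besides SMARCC1. ARID2-201, of 8642 nucleotides, held at least 89.3% of its counts in every library, with 892, 1043 and 1129 counts in the controls and 933, 844 and 871 counts in the knockdowns. ARID2-202 took most of the rest, with 1 to 100 counts, and ARID2-209 with a retained intron had 2 to 8 counts. The share of counts in protein-coding transcripts, and the share in the most abundant transcript, overlapped between groups in each of the 10 genes. The exact permutation p-values ranged from 0.2 to 0.9 for the coding share and from 0.3 to 1.0 for the other.

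**Figure D4:**
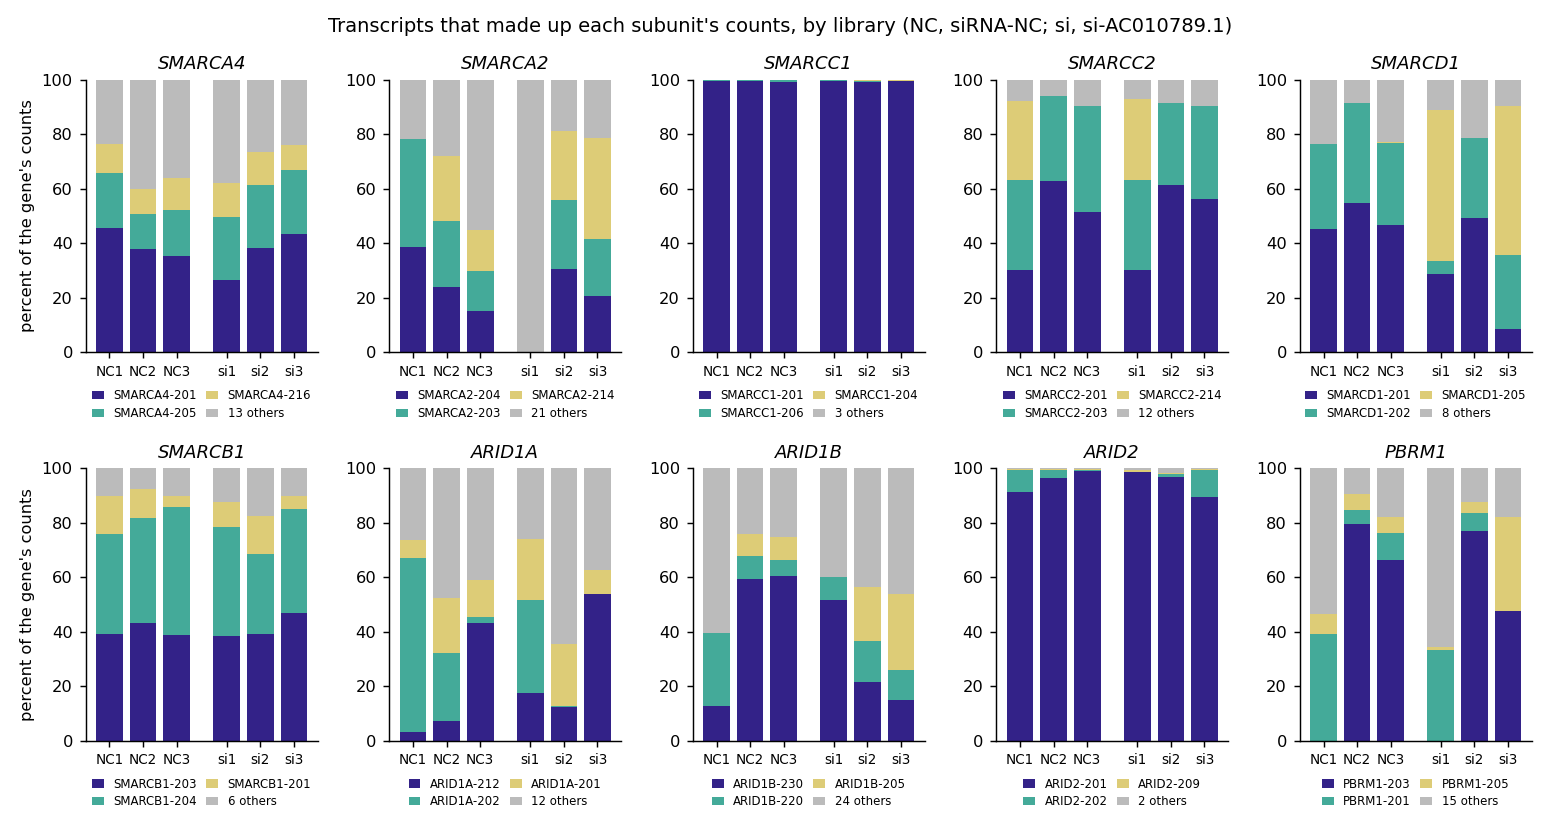
Percent of each gene's counts (y axis) in its 3 most abundant transcripts and in all others together, for each library (x axis; NC, siRNA-NC; si, si-AC010789.1). SMARCC1 and ARID2 rest on 1 transcript in every library, whereas PBRM1-203 is at 0 in both libraries numbered 1 and SMARCC2-214 appears in those libraries only.

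Transcripts of a gene were also grouped by the alternative exons and splice sites that they contain. Across the 10 genes, 18 segments were found for which transcripts with and without the segment each held at least 10% of the gene's counts, and 16 of them were coding at both ends in the leading transcript that holds them. SMARCC1 and ARID2 had none. For each segment, transcripts were taken as holding or skipping it by exact annotated junctions, and percents are of the counts of these transcripts (informative counts). Transcripts that hold or skip a segment by other junctions were left out. This search was made after the transcript counts had been seen.

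To show what tells the forms apart, junctions of 4 coding exons follow, 30 letters each. They were read from the GENCODE release 29 transcript sequences in the direction of transcription. Reads over these junctions were not counted, and the percents rest on the deposited counts of whole transcripts. Lower case marks the last 15 letters of the exon before, and capitals mark the first 15 letters that follow it, either of the alternative exon or of the exon after it.
SMARCA4 with the 96-nucleotide exon: aagcagtggctcaagAAAATTACAGGAAAA
SMARCA4 without it: aagcagtggctcaagGCCATCGAGGAGGGC
SMARCA2 with the 54-nucleotide exon: aaactacaaagatagGTGTAACGTGGAGAA
SMARCA2 without it: aaactacaaagatagTTCAGGGCGACAGCT
SMARCD1 with the 123-nucleotide exon: actctagacaacaagATCCATGAGACAATA
SMARCD1 without it: actctagacaacaagACAATGACTGATGTG
PBRM1 with the 96-nucleotide exon: aagtcttcgaatgagGACTCCATCCAACTT
PBRM1 without it: aagtcttcgaatgagTAATAAAAGAGCAGT

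The SMARCA4 exon (chr19:11039458-11039553, plus strand) was chosen because it is the single one of the 18 whose groups did not overlap, so its values are a description. The same search over all genes tested found 7992 segments, of which 10.5% did not overlap between groups. By exact junctions the exon belongs to SMARCA4-205 alone, whereas SMARCA4-201, the leading form, lacks it. Another 5 transcripts, with 16.5% of SMARCA4 counts, skip the exon by the 9-nucleotide splice site and were left out. Of the informative counts, SMARCA4-205 held 28.1%, 17.7% and 23.2% in the controls and 30.9%, 34.6% and 32.4% in the knockdowns. The means were 23.0% ± 5.22 and 32.6% ± 1.87 (SD, n = 3 each), a difference of 9.63 percentage points with an exact permutation p = 0.1, the smallest possible, and 0.9 after Benjamini-Hochberg adjustment over the 18 segments. SMARCA4-205 had 394, 254 and 349 counts in the controls and 490, 462 and 557 counts in the knockdowns, a log2 fold change of 0.63 with an unadjusted edgeR p-value of 0.0485 and an adjusted one of 0.868. SMARCA4-201 had 551 to 1026 counts and SMARCA4-216 had 179 to 260 counts. Those forms overlapped between groups. The other SMARCA4 segments, an exon of 99 and a splice site of 9 nucleotides, were used at 70.4% to 77.9% and 17.6% to 32.3%, also overlapping.

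The SMARCA2 exon (chr9:2170419-2170472, plus strand) is shown for the spread of a single library. It was held by 46.9%, 30.1% and 29.2% of the informative counts in the controls and by 4.92%, 29.9% and 24.3% in the knockdowns. Knockdown library 1 was the one without the 3 leading forms. Left out was SMARCA2-227, which joins this exon to a later one and had 262 counts in that library and 4 to 363 elsewhere. The SMARCD1 exon (chr12:50096850-50096972, plus strand) is shown because the control libraries agreed closely on it, at 40.9%, 40.1% and 39.2%. The knockdown libraries did not, at 67.6%, 37.5% and 90.6%, the high values being those with SMARCD1-205. The PBRM1 exon (chr3:52643248-52643343, minus strand) is missing from PBRM1-203 and is shown for the contrast between numbered libraries. It was held by 100%, 19.1% and 32.8% of the counts in the controls and by 100%, 20.9% and 51.2% in the knockdowns. The exact permutation p-values of these exons were 0.2, 0.4 and 0.8.

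Of the 18 segments, 17 have a length that is a multiple of 3, which keeps the reading frame when a coding segment is skipped. The exception is a 106-nucleotide SMARCA2 exon. Transcripts that join it to the 54-nucleotide exon held 7.75% to 98.9% of the informative counts, set against SMARCA2-227, which skips it. Transcripts that enter it without the 54-nucleotide exon, with 52.3% of SMARCA2 counts, were left out, so this is not the share that holds the exon. Besides these, the SMARCC2 exon of 93 nucleotides was held by 67.1% and 67.9% of the counts in both libraries numbered 1 and by 34.1% to 45.3% in the others. For ARID1A, a splice site that removes 651 nucleotides of coding sequence was used unevenly, the longer form holding 75.9% to 100%. ARID1A-205, the form without them, had 71, 421 and 477 counts in the controls and 0, 0 and 474 in the knockdowns. The ARID1A splice site of 3 nucleotides ranged from 28.0% to 82.9%.

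**Figure D5:**
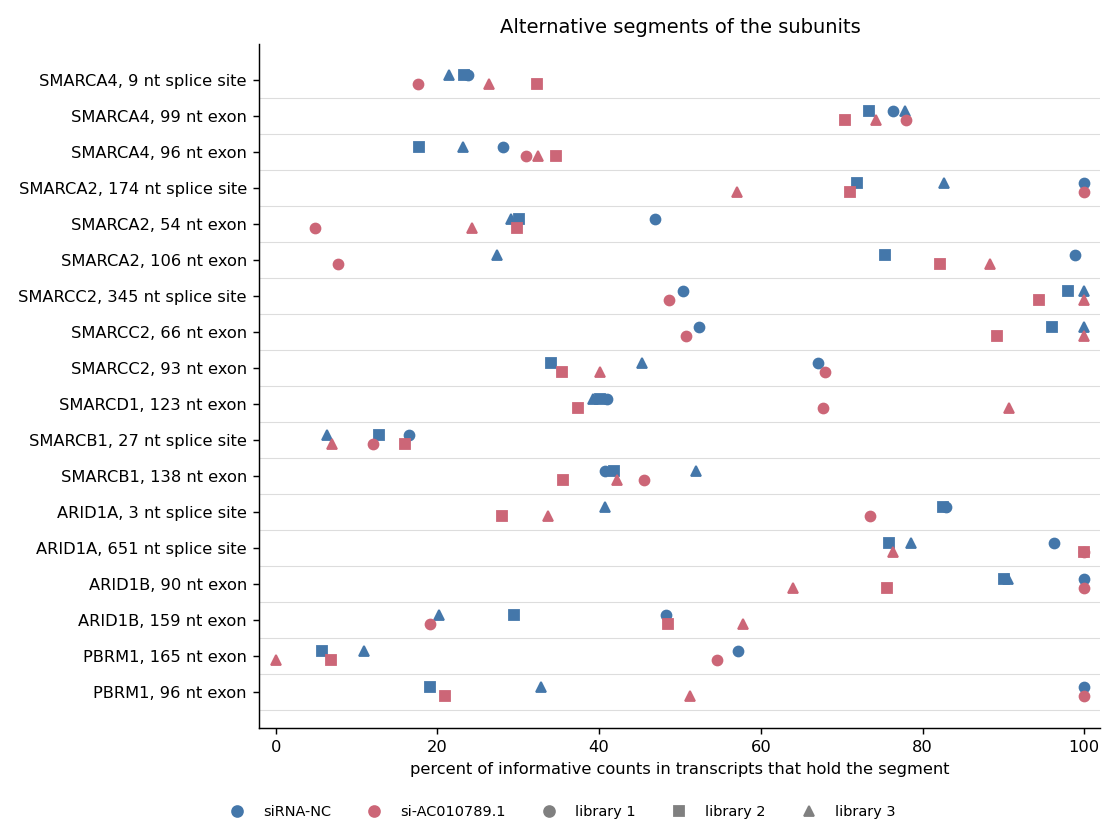
Percent of informative counts in transcripts that hold the segment (x axis) for each of the 18 alternative segments (y axis, with its gene and length), blue for siRNA-NC, red for si-AC010789.1, with marker shapes for library numbers. The 96-nucleotide SMARCA4 exon is the single segment without overlap, and PBRM1 and SMARCC2 exons separate library 1 of both groups from the rest.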

How the data were processed

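Paired-end TruSeq libraries of 3 siRNA-NC and 3 si-AC010789.1 samples were sequenced by the authors, who deposited whole-number counts per Ensembl transcript without normalization. The submitters' processing notes name CASAVA 1.8 and TopHat2 2.0.6 and the builds GRCh38 and mm10, without a role for either build. The methods name Cuffdiff, which needs alignments and was not run. The counting program, its use of strand and the division of reads among transcripts are not given in the sources used here.

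Of 98886 transcripts, 98803 were matched to GENCODE release 29 (GRCh38), which may not be the authors' annotation. Between 99.907% and 99.941% of each library's counts were matched, and they were summed over 18768 genes. Sums and transcripts were tested with edgeR 4.0.16 (R 4.3.3), using TMM, filterByExpr (minimum count 10, minimum total 15), the quasi-likelihood test and Benjamini-Hochberg adjustment over all features, with a threshold of 0.05. CPM and TPM were computed from the counts. The CPM values given for genes and transcripts used the TMM-scaled library sizes of the gene-level test, and the floor used the unscaled totals. TPM used annotated transcript lengths. Ratios, shares and segments were compared with exact two-sided permutation tests, which cannot go below 0.1 with 3 libraries against 3. They measure only the spread between these samples, as do the other p-values.

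The alternatives were DESeq2 1.42.0, testing without the count filter, a minimum mean of 1 CPM, RLE factors, the replicate number as a block, each library left out, counts without length, and other definitions of the shares. On simulated data the gene-level test called most of the changed genes, but the transcript-level test called none of the changed transcripts. A transcript that was not called thus cannot be read as unchanged. Whether the gene-level test can call differences as small as those of the 10 members was not tested. A member that was not called cannot be read as unchanged either. The members and lists were chosen with earlier results of these data known. The text names the 10 members, in every other list the genes called and the 3 with the largest absolute log2 fold change, and of each member's transcripts the 3 with the highest mean CPM and those with an unadjusted p-value under 0.05. Any other name was chosen after its values were seen.

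Whether library numbers pair the samples was checked by the correlation of same-numbered libraries' deviations from their group means over 13764 genes, which was 0.11, 0.011 and 0.017. The numbers were not taken as pairs, since nothing in the labels ties them and not every value exceeded 0.1. Whether same-numbered libraries share a cell generation is not stated. The SMARCC1 call depends on this choice: with the number as a block its edgeR adjusted p-value was 0.154.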

Additional observations from a re-analysis of the deposited data

How the results depend on the processing

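SMARCC1 kept its direction under all 12 alternatives, with log2 fold changes from -0.36 to -0.32, and its call under DESeq2, no filter, the 1 CPM filter and RLE factors (adjusted p-values 5.83e-07, 0.0389, 0.0253 and 0.0263). With the replicate block its adjusted p-value was 0.154, and 0 genes, 0 transcripts and 0 members were called. The block moved the SE of PBRM1 from 0.23 to 0.072 and its adjusted p-value from 0.760 to 0.377. Over genes only the libraries numbered 1 correlated best with each other, at 0.11, whereas over transcripts every library correlated best with its own number, at 0.014, 0.011 and 0.0088, a hint from the data and not from the design. With both libraries numbered 1 left out, an alternative chosen after seeing the data, 4 genes and 0 members were called and SMARCC1 had an adjusted p-value of 0.175, with 2 libraries fewer. DESeq2 called 568 genes, 124 of them shared with the 130 of edgeR, and 613 transcripts against 6. Without the filter 69 genes and 0 transcripts were called. Leaving out 1 library gave 12 to 37 genes, 0 to 6 transcripts and 0 to 0 members called.

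Signs near 0 changed. SMARCA2 had 0.0016 (DESeq2), 0.0012 (1 CPM filter), 0.0016 (RLE), 0.0013 (replicate block) and 0.017 (libraries numbered 1 left out), and -0.054 to 0.035 without single libraries, where SMARCC2 had -0.020 to 0.021. SMARCC2 had 0.027 with libraries numbered 1 left out. The log2 ratio difference of PBRM1 to SMARCA4 was -0.012 without length. Without single libraries, the ratio differences ran from -0.072 to 0.087 (ARID1A/ARID1B), -0.025 to 0.19 (SMARCA4/SMARCA2) and -0.060 to 0.056 (ARID2/ARID1A). Coding-share differences, in percentage points, ran from -1.23 to 4.22 (ARID1A), -4.46 to 2.29 (ARID1B), -13.8 to 12.4 (SMARCA2), -3.36 to 0.222 (SMARCA4), -0.223 to 0.0019 (SMARCC1) and -9.95 to 9.95 (SMARCC2), and were -8.72 (ARID1A) and -4.26 (PBRM1) when a start and a stop codon were required. Differences in the share of the leading transcript ran from -2.86 to 22.8 (ARID1A), -2.84 to 2.04 (ARID2), -7.24 to 1.32 (SMARCA4), -1.68 to 2.59 (SMARCB1), -0.223 to 0.0019 (SMARCC1), -7.78 to 10.7 (SMARCC2) and -31.2 to 13.9 (PBRM1). With the 2 leading transcripts together they were -8.91 (ARID1A), 3.09 (SMARCA4), -3.87 (SMARCB1) and -0.909 (SMARCC2). The cause of these moves was not tested. The biological coefficient of variation, the spread between libraries beyond counting error, was 0.17 for genes and 0.70 for transcripts, and what depth alone limits was not tested.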

Other observations

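Other chromatin remodellers were listed beside SWI/SNF. Of 19 CHD and NuRD genes tested, 1 was called by edgeR (0.944% of all genes tested), 8 had an unadjusted p-value under 0.05 (17.2% of all), 5 of them higher and 3 lower in the knockdowns, and 10 had groups that did not overlap (25.1% of all). The gene called, MTA2, a NuRD subunit, had 167, 174 and 186 CPM in the controls and 128, 121 and 125 CPM in the knockdowns, a log2 fold change of -0.49 with an edgeR adjusted p-value of 0.0224. Its adjusted p-value ranged from 1.46e-07 with DESeq2 to 0.149 with the replicate block, and was 0.0636, 0.0817 and 0.0684 without control libraries 1, 2 and 3 and 0.0670, 0.0844 and 0.0988 without knockdown libraries 1, 2 and 3. The others with the largest log2 fold changes of that list, RBBP7 (0.44, adjusted p-value 0.192) and CHD9 (-0.30, adjusted p-value 0.0866), were not called by edgeR.

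Of 20 INO80 and SRCAP genes tested, 1 was called by edgeR, 3 had an unadjusted p-value under 0.05 and 6 had groups that did not overlap, against the same shares of all genes. The gene called, INO80E, an INO80 subunit, had 26.1, 23.8 and 23.9 CPM in the controls and 34.2, 34.1 and 35.1 CPM in the knockdowns, a log2 fold change of 0.49 with an edgeR adjusted p-value of 0.0473. Its adjusted p-value ranged from 0.00114 with DESeq2 to 0.228 with both libraries numbered 1 left out, was 0.0628 without the filter and 0.105 to 0.148 when any single library of the 6 was left out. ACTR5 (0.23, adjusted p-value 0.297) and SRCAP (-0.23, adjusted p-value 0.267) followed in size. By edgeR, 0 of 11 ISWI genes and 0 of 9 PRC2 genes were called, with 1 and 0 at an unadjusted p-value under 0.05. In the ISWI list POLE3 (0.36), CHRAC1 (-0.34) and SMARCA1 (0.31) had the largest log2 fold changes. POLE3 stood at 35.5 CPM in control library 3 and at 123 to 130 CPM in the other 5 libraries. In the PRC2 list these were PHF1 (0.25), EZH1 (0.16) and MTF2 (0.16).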
